A study of Arabidopsis thaliana with 6 samples.

Results

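The chloroplast genome of *Arabidopsis thaliana* carries genes for part of the photosynthetic machinery, and 43 of these genes were measured in rosettes of control and salt-treated plants. They were taken as the probe sets whose platform annotation named 1 chloroplast gene with a symbol starting with *psa* (photosystem I), *psb* (photosystem II), *pet* (cytochrome b6f complex), *atp* (ATP synthase) or *ndh* (NADH dehydrogenase-like complex, NDH), together with *rbcL*, the large subunit of Rubisco. A reference gene table held 44 such genes. The missing gene was *ndhB*, whose copies in the inverted repeat share 1 probe set, so that the annotation named more than 1 gene. The members were 5 genes of photosystem I, 15 of photosystem II, 6 of cytochrome b6f, 6 of ATP synthase, 10 of NDH and *rbcL*. They were 43 of the 13286 genes with a named probe set, and each was represented by 1 probe set among the 22746 on the array that are not control probe sets.

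Plants of the wild type Col-0 were grown in hydroponics, and the roots of the treated plants received medium with 150 mM NaCl for 4 d, whereas control plants received medium without NaCl. RNA of each sample was hybridized to 1 Affymetrix ATH1 array, with 3 control and 3 salt arrays from biological replications. Per the labels the tissue was the whole rosette, and plants of both groups were 28 d old. The replications were independent and treatment began at the labelled age according to the methods. Values are log2 expression after robust multiarray averaging (RMA), and a difference of 1 on this scale is 2-fold. A whole rosette mixes leaves of different ages, and fewer chloroplasts or cells of a type cannot be told apart from less transcript in each.

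In the thylakoid membrane, photosystem II splits water, cytochrome b6f passes electrons on and pumps protons, photosystem I reduces ferredoxin, and ATP synthase uses the proton gradient. NDH returns electrons from ferredoxin to the chain in cyclic flow, and Rubisco fixes CO2 in the stroma. Each of these complexes is built from chloroplast-encoded and nuclear-encoded subunits. Many chloroplast genes are transcribed together with their neighbours and then cut into shorter RNAs. The labelling kit primes on poly(A) tails, which chloroplast transcripts mostly lack and which in chloroplasts are linked to RNA decay. Its part in the differences given here was not tested.

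The control arrays correlated with each other at 0.993 to 0.997 over all probe sets and the salt arrays at 0.980 to 0.988. In the chloroplast genes the arrays of 1 group lay further apart. The median SD of the 43 genes was 0.33 in the control and 0.57 in the salt group, against 0.085 and 0.16 over all probe sets. Control 3 was the lowest control array for 40 of the 43 genes and salt 1 the lowest salt array for 35. The array's own probe set for cytosolic 25S ribosomal RNA read 7.16, 7.20 and 7.84 on the control and 10.24, 9.05 and 9.48 on the salt arrays, so the groups did not overlap. The 3' minus 5' difference of actin, a sign of RNA integrity, was 3.23, 3.11 and 3.23 on the control and 3.36, 3.47 and 3.66 on the salt arrays. That of GAPDH went the other way, with 0.44, 0.45 and 0.39 on the control and 0.37, 0.29 and 0.07 on the salt arrays. The part of these signals in the differences was not tested. None of 10 mesophyll markers had a named probe set, so the leaf label could not be checked with them. Of 10 root markers 2 were named, *EXPA7* and *EXPA18*, with means over the arrays of 5.86 and 5.91 against a 30th percentile of 5.45 over all probe sets and differences of -0.16 and -0.13 that did not pass. The 1 guard cell marker named of 6, *FAMA*, fell by 0.62 ± 0.11 (limma adjusted p = 0.00897), and its part in the results was not tested.

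Transcripts of the photosynthesis genes of the chloroplast were lower with salt. In all, 27 of the 43 genes fell (limma, Benjamini-Hochberg adjusted p below 0.05), which is 62.8%, whereas 13.8% of all probe sets fell. No member rose, against 11.6% of all probe sets, and 0 were higher at an unadjusted p below 0.05. The median difference was -1.07, with a range of -2.16 for *atpI* to 0.15 for *psbA*, and the median over all probe sets was -0.03. A difference of 2-fold or more, the cut-off used in the study, was seen in 24 members (55.8%), all lower with salt, against 2.74% of all probe sets. In 27 members every salt array lay below every control array, an arrangement found in 25.4% of all probe sets. The number of falls depended on the control arrays. Without control 1, 6 members passed, and without control 2 also 6, while the share of all probe sets that fell went to 3.81% and 3.88%. The 6 genes that fell under every alternative tried were *psaA*, *psaJ*, *psbE*, *psbF*, *psbI* and *psbK*.

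**Figure D1:**
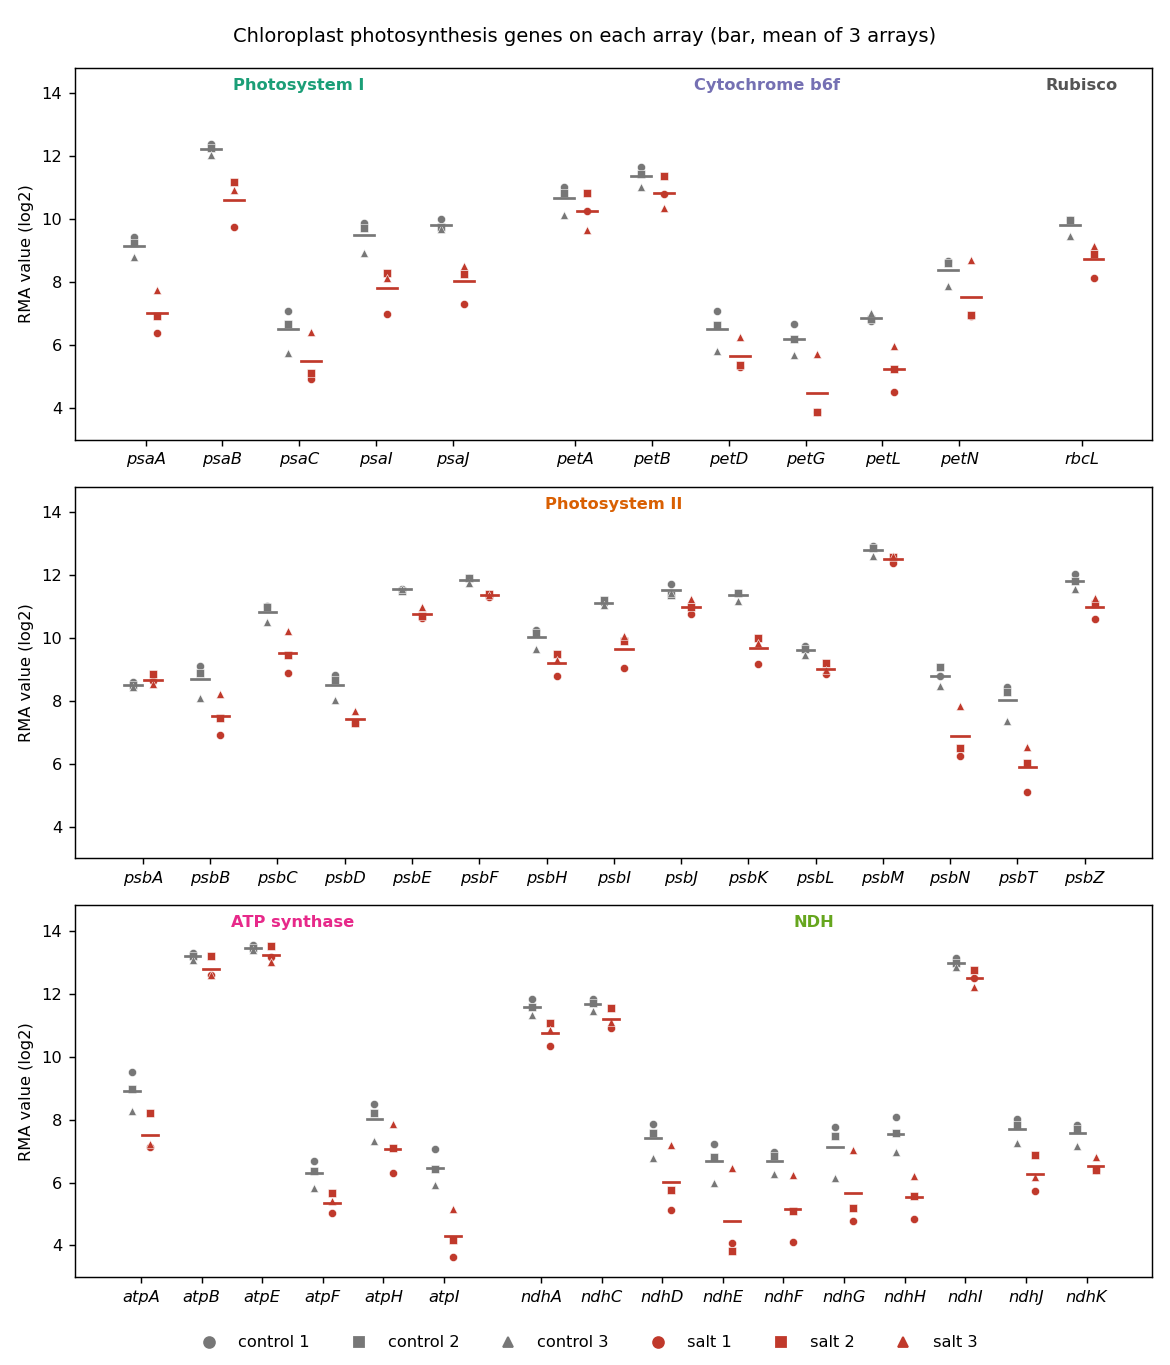
RMA value (log2) of each of the 43 genes on each array, grouped by complex, with control arrays in grey, salt arrays in red, the symbol giving the replicate and the bar the mean of 3 arrays. The salt means lie below the control means in 42 genes, *psbA* is the exception, and levels of different genes are not comparable because each has its own probes.

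All 5 genes of photosystem I were at least 2-fold lower with salt, and 4 of them passed the test. The median difference of the complex was -1.70. *psaA* (ArthCp022) and *psaB* (ArthCp021) encode the large proteins that carry the reaction centre. The *psaA* probe set read 9.45, 9.25 and 8.79 on control arrays 1 to 3 and 6.40, 6.94 and 7.76 on salt arrays 1 to 3. All salt arrays were below all control arrays, and *psaA* fell by 2.13 ± 0.34 (SE, n = 3 arrays per group), 4.38-fold, with a limma adjusted p = 0.00682. *psaB* read 12.39, 12.26 and 12.03 on the control and 9.77, 11.18 and 10.93 on the salt arrays. It fell by 1.60 ± 0.34 (adjusted p = 0.0171), and salt 1 stood well below the other salt arrays. *psaJ* (ArthCp042), a small subunit, read 10.01, 9.77 and 9.70 on the control and 7.32, 8.26 and 8.53 on the salt arrays, without overlap. It fell by 1.79 ± 0.29, 3.46-fold (adjusted p = 0.00749). *psaI*, another small subunit, fell by 1.70 (adjusted p = 0.0212). *psaC* (ArthCp075) encodes the subunit that holds the terminal iron-sulfur clusters, and its groups overlapped. It read 7.10, 6.69 and 5.75 on the control and 4.94, 5.13 and 6.41 on the salt arrays, a difference of -1.02 ± 0.46 that did not pass (adjusted p = 0.155). Salt 3 was above control 3, and without salt 3 the difference was -1.48 (adjusted p = 0.0404), but without control 1 it was -0.73 (adjusted p = 0.398).

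In photosystem II 12 of 15 genes fell, 7 genes were at least 2-fold lower, and the median difference was -0.83. The differences spanned more than in photosystem I. *psbT* (ArthCp050), a small subunit of the core, read 8.44, 8.27 and 7.37 on the control and 5.12, 6.02 and 6.53 on the salt arrays. The groups were apart, and *psbT* fell by 2.14 ± 0.40, 4.40-fold (adjusted p = 0.0115). *psbN* (ArthCp051), on the opposite strand next to *psbT*, is known from tobacco to be needed for assembly of the photosystem. It read 8.80, 9.07 and 8.46 on the control and 6.26, 6.52 and 7.84 on the salt arrays, and fell by 1.90 ± 0.40 (adjusted p = 0.0157), with salt 3 the closest to the controls.

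Among the genes of the reaction centre and its inner antenna, *psbC* (CP43) and *psbD* (the D2 protein) fell, whereas *psbB* (CP47) and *psbA* (the D1 protein) did not pass. *psbC* fell by 1.32 (adjusted p = 0.0255) and *psbD* fell by 1.07 (adjusted p = 0.0143). Without control 1 or control 2 neither passed, with adjusted p of 0.0575 to 0.0958. *psbC* also lost its call without salt 2 (adjusted p = 0.0588) and with the replicate number as a block (adjusted p = 0.0559). The difference of *psbB* was -1.17 (adjusted p = 0.0591), with salt 3 above control 3. D1 is damaged by light and replaced continually, and its gene *psbA* (ArthCp002) was the 1 member with a difference above 0. The *psbA* probe set read 8.61, 8.51 and 8.44 on the control and 8.63, 8.85 and 8.54 on the salt arrays. These values overlapped, and the difference of 0.15 ± 0.11 did not pass (adjusted p = 0.341). It stayed between 0.065 and 0.22 when any 1 array was left out.

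*psbE* and *psbF*, the subunits of cytochrome b559, fell by small amounts with little spread between arrays. *psbE* read 11.56, 11.49 and 11.57 on the control and 10.64, 10.69 and 10.99 on the salt arrays, a difference of -0.77 ± 0.11 (adjusted p = 0.00491). *psbF* read 11.92, 11.90 and 11.75 on the control and 11.31, 11.39 and 11.35 on the salt arrays, a difference of -0.51 ± 0.085 (adjusted p = 0.00784). Their arrays did not overlap. Of the small subunits with *psbN*, 8 of 9 fell. *psbK* had the smallest adjusted p of all members (0.00318) and fell by 1.68, and *psbI* fell by 1.46. *psbH*, *psbZ*, *psbL* and *psbJ* fell, with differences from -0.83 to -0.52. *psbM* (ArthCp016) did not pass. It read 12.92, 12.87 and 12.59 on the control and 12.37, 12.57 and 12.60 on the salt arrays, which overlapped at the edge, with a difference of -0.28 ± 0.12 (adjusted p = 0.131).

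**Figure D2:**
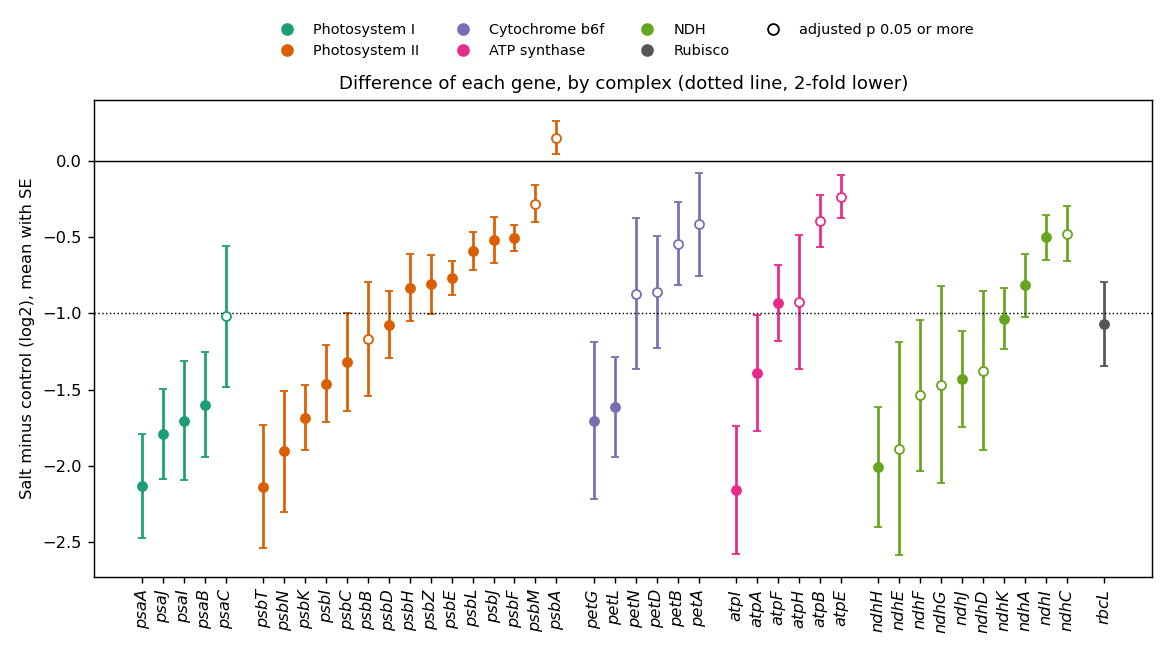
Difference of salt minus control (log2, mean with SE of the limma fit, n = 3 arrays per group) for each gene, ordered within its complex, with filled points for an adjusted p below 0.05 and a dotted line at a 2-fold fall. All photosystem I genes lie below the dotted line, while photosystem II ranges from -2.14 for *psbT* to 0.15 for *psbA*.

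In cytochrome b6f 2 of 6 genes passed, both small subunits, and the median difference was -0.87. *petL* (ArthCp040) read 6.78, 6.82 and 7.02 on the control and 4.53, 5.26 and 5.99 on the salt arrays. The groups were apart, and *petL* fell by 1.61 ± 0.33 (adjusted p = 0.0146). *petG* (ArthCp041) read 6.69, 6.20 and 5.69 on the control and 3.87, 3.89 and 5.71 on the salt arrays. Salt 3 was level with control 3, so the groups overlapped. Its difference of -1.70 ± 0.51 lay just inside the threshold (adjusted p = 0.0495), and the call was lost without any 1 of the arrays except salt 3 and under 4 other alternatives, with adjusted p of 0.0501 to 0.160. *petN*, the third small subunit, differed by -0.87 (adjusted p = 0.243).

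None of the 3 large subunits of cytochrome b6f passed the test, and none did so at an unadjusted p below 0.05. *petA* (ArthCp035) encodes cytochrome f, which hands electrons to plastocyanin. It read 11.04, 10.84 and 10.15 on the control and 10.28, 10.84 and 9.66 on the salt arrays, and the difference of -0.42 ± 0.33 was within the spread (adjusted p = 0.411). *petB* (ArthCp053), for cytochrome b6, read 11.67, 11.45 and 11.03 on the control and 10.80, 11.37 and 10.35 on the salt arrays. Salt 2 was among the controls, and the difference was -0.54 ± 0.27 (adjusted p = 0.192). It was -0.81 without salt 2 (adjusted p = 0.0456) and -0.40 without control 1 (adjusted p = 0.452). *petD*, for subunit IV, differed by -0.86 (adjusted p = 0.131).

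The ATP synthase genes ranged from the lowest fitted difference among the members to differences within the spread. Of 6 genes 3 fell, and the median was -0.93. *atpI* (ArthCp010), for the membrane subunit next to the ring through which protons pass, read 7.05, 6.43 and 5.93 on the control and 3.63, 4.16 and 5.15 on the salt arrays. It fell by 2.16 ± 0.42 (adjusted p = 0.0126), without overlap. Its salt mean lay under the 30th percentile of the mean signal, so the size of the fall is uncertain. *atpA* (ArthCp007), for the alpha subunit of the catalytic head, read 9.50, 8.97 and 8.27 on the control and 7.12, 8.22 and 7.23 on the salt arrays. It fell by 1.39 ± 0.38 (adjusted p = 0.0375), and salt 2 lay just below control 3. Its call was lost without control 1, control 2, salt 1 or salt 3 (adjusted p of 0.0834 to 0.12). *atpF*, of the stalk in the membrane part, fell by 0.93 (adjusted p = 0.0343), whereas *atpH*, for the ring itself, differed by -0.92 and did not pass (adjusted p = 0.171). The call of *atpF* was lost without control 1, control 2, salt 1 or salt 3 and with the replicate number as a block (adjusted p of 0.0595 to 0.116).

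*atpB* (ArthCp029) and *atpE* (ArthCp028) encode the beta and epsilon subunits of the catalytic head. *atpB* read 13.29, 13.19 and 13.08 on the control and 12.60, 13.19 and 12.59 on the salt arrays. *atpE* read 13.53, 13.44 and 13.38 on the control and 13.16, 13.50 and 12.99 on the salt arrays. In both genes salt 2 reached the controls while the other salt arrays were lower. The differences were -0.39 ± 0.17 (adjusted p = 0.14) and -0.23 ± 0.14 (adjusted p = 0.262). Without salt 2 they were -0.59 (adjusted p = 0.00953) and -0.38 (adjusted p = 0.0403), and without salt 3 -0.29 (adjusted p = 0.295) and -0.12 (adjusted p = 0.528).

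NDH had 7 of 10 genes at least 2-fold lower, but 5 that passed the test, with a median of -1.40. The 4 genes of the arm in the stroma, *ndhH* to *ndhK*, all fell, whereas 1 of 6 genes of the membrane arm did. The medians of the arms were -1.23 and -1.42, and the SEs went up to 0.39 in the stromal and 0.70 in the membrane arm. *ndhH* (ArthCp080) read 8.09, 7.57 and 6.97 on the control and 4.83, 5.56 and 6.22 on the salt arrays. It fell by 2.01 ± 0.39, 4.02-fold (adjusted p = 0.013), without overlap. *ndhJ* fell by 1.43 (adjusted p = 0.018) and *ndhK* fell by 1.03 (adjusted p = 0.0126). *ndhI* (ArthCp078), an iron-sulfur subunit, read 13.14, 12.97 and 12.85 on the control and 12.50, 12.74 and 12.22 on the salt arrays. The groups were apart by a small step, and the difference of -0.50 ± 0.15 lay near the threshold (adjusted p = 0.0475). This call was lost with quantile normalization and without any 1 array except salt 2 (adjusted p of 0.0749 to 0.166).

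In the membrane arm *ndhA* fell by 0.82 (adjusted p = 0.0292). *ndhE* (ArthCp076) read 7.23, 6.81 and 5.98 on the control and 4.07, 3.82 and 6.47 on the salt arrays. Salt 3 lay among the controls and the other salt arrays far below, and the difference of -1.89 ± 0.70 did not pass (adjusted p = 0.0906). In *ndhD* and *ndhG* salt 3 also lay among the controls, and in *ndhF* it lay just below them. *ndhD*, *ndhF* and *ndhG* had differences of -1.38, -1.54 and -1.47 (adjusted p = 0.0975, 0.0614 and 0.143). Without salt 3, the highest salt array in each, these 4 genes passed. Their adjusted p were 0.00644 for *ndhE*, 0.0164 for *ndhD*, 0.0119 for *ndhF* and 0.0278 for *ndhG*. Without control 1 the adjusted p were 0.25, 0.268, 0.18 and 0.36 in the same order. *ndhC* (ArthCp027) read 11.84, 11.70 and 11.45 on the control and 10.92, 11.55 and 11.09 on the salt arrays. Salt 2 overlapped the controls, and the difference was -0.48 ± 0.18 (adjusted p = 0.0975). It was -0.66 without salt 2 (adjusted p = 0.0203) and -0.39 without control 1 (adjusted p = 0.28). The probe set shared by the copies of *ndhB*, which is no member, differed by -0.80 (adjusted p = 0.0568).

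*rbcL* (ArthCp030) read 9.99, 9.98 and 9.47 on the control and 8.15, 8.91 and 9.17 on the salt arrays. All salt arrays were below the controls. *rbcL* fell by 1.07 ± 0.27 (adjusted p = 0.0297), past the 2-fold cut-off. Its call was lost without control 1 (adjusted p = 0.107) or control 2 (adjusted p = 0.11). It was also lost with the replicate number as a block (adjusted p = 0.06).

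Contrasts between complexes were made within each array, where the mean of the genes of 1 complex was subtracted from that of another. Only a shift of equal size in all chloroplast genes drops out in this way. The 10 pairs are given as a description without a test. Photosystem I had the largest difference. Its mean relative to photosystem II was -0.73, -0.88 and -1.04 on the control and -1.90, -1.43 and -1.29 on the salt arrays, a difference of -0.66 ± 0.20 (SE, n = 3 arrays per group). Relative to cytochrome b6f the difference was -0.65 ± 0.17, relative to ATP synthase -0.64 ± 0.21, and relative to NDH -0.40 ± 0.11. In each of these 4 contrasts the control and salt arrays did not overlap. They are not independent of each other, since all contain the photosystem I genes. With any 1 array left out they stayed negative but moved. They were smallest without salt 1, the lowest salt array in all 5 photosystem I genes, at -0.48, -0.48, -0.49 and -0.315 in the same order. The largest were -0.78, -0.76, -0.84 and -0.49. Photosystem I relative to photosystem II ranked the arrays as the mean over all members did, and the part of the shared fall in it was not tested.

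The other complexes were harder to separate. Cytochrome b6f relative to NDH gave 0.25 ± 0.099, so NDH was the lower with salt, also without overlap of the arrays. Photosystem II, cytochrome b6f and ATP synthase differed from each other by at most 0.01, with SEs of 0.11 to 0.18. Photosystem II against NDH gave 0.26 ± 0.19 and ATP synthase against NDH 0.25 ± 0.22, and the arrays overlapped in both. These contrasts with NDH moved with single arrays. Photosystem II against NDH was 0.16 without control 1 or salt 1 and 0.40 without salt 3, ATP synthase against NDH was 0.10 without salt 2 and 0.47 without salt 3, and cytochrome b6f against NDH was 0.17 without salt 1. With any 1 array left out, the contrasts among photosystem II, cytochrome b6f and ATP synthase lay between -0.14 and 0.16. *atpI* and *petG*, the 2 members under the 30th percentile of mean signal, weighed on these contrasts. Without these 2 genes photosystem II against cytochrome b6f was -0.13, photosystem II against ATP synthase -0.22 and cytochrome b6f against NDH 0.39, while photosystem I remained lower relative to the other 4 complexes, with differences from -0.87 to -0.40.

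**Figure D3:**
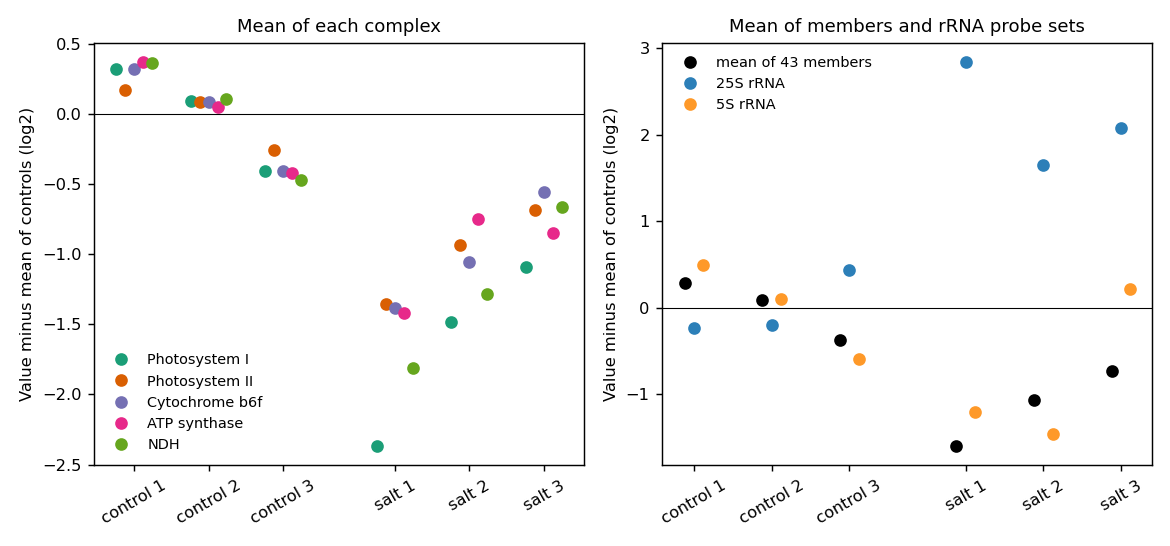
Left, the mean of the genes of each complex on each array, and right, the mean of all 43 members beside the 25S and 5S ribosomal RNA probe sets, each as the value minus the mean of the 3 control arrays (log2). Photosystem I is the lowest complex on every salt array, while 25S ribosomal RNA is 2.19 higher with salt and 5S overlaps between the groups.

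The arrays within a group did not shift all genes alike. The mean over the 43 members was 9.71, 9.52 and 9.06 on the control and 7.83, 8.35 and 8.69 on the salt arrays, with a difference of -1.13 ± 0.32 (SE). Control 1 was the highest control array in 38 genes. Salt 3 was the highest salt array in 26 genes and salt 2 in the other 17. The 26 genes with salt 3 highest had a median difference of -1.35, and the 17 with salt 2 highest one of -0.59. Salt 3 was highest in 10 of 15 photosystem II genes, 6 of 10 NDH genes, 4 of 6 cytochrome b6f genes and 2 of 6 ATP synthase genes. The widest range within a group was 1.62 in the control and 2.65 in the salt arrays, the latter in *ndhE*. In 6 genes, *atpI*, *atpF*, *ndhE*, *ndhF*, *petG* and *petL*, the salt mean lay under 5.45, the 30th percentile of the mean signal, and no control mean did. On arrays the differences of dim probe sets tend to be understated. At the bright end, *atpE*, *atpB*, *ndhI* and *psbM* had the highest control means of the members. They differed by only -0.23, -0.39, -0.50 and -0.28, whereas *psaB*, the next brightest, differed by -1.60. The part of signal level in the differences and in the contrasts between complexes was not tested.

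Genes transcribed together had similar differences in some clusters and not in others. Gene order was read from the reference gene table, and the clusters are those known for chloroplast genomes of land plants. The 4 genes *psbE*, *psbF*, *psbL* and *psbJ* all fell in the main analysis. Their differences lay within 0.26 of each other around a median of -0.56. In *petL*, *petG* and *psaJ* they lay within 0.18 around -1.70, although the genes belong to different complexes. *rpl33* and *rps18*, genes of ribosomal proteins that follow on the same strand, had differences of -2.04 and -1.79 and both fell. *psbK* and *psbI* lay 0.22 apart, and *atpB* and *atpE*, of which neither passed, 0.16 apart. *psaA* and *psaB* lay 0.53 apart, and *psbD*, *psbC* and *psbZ* within 0.51. *rps14*, next to *psaB* in the gene order, differed by -0.83 and did not pass (adjusted p = 0.115).

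Other clusters were spread widely. Differences spanned 1.59 in *psbB*-*psbT*-*psbH*-*petB*-*petD*, 1.51 in *psaC*-*ndhE*-*ndhG*-*ndhI*-*ndhA*-*ndhH*, 1.23 in *atpI*-*atpH*-*atpF*-*atpA* and 0.95 in *ndhC*-*ndhK*-*ndhJ*. The 33 pairs of neighbouring members were taken by gene order alone, so some join genes of different clusters or strands. Their median distance between differences was 0.36, and over all 903 pairs of members it was 0.60. The largest step between neighbours was 1.23, between *atpH* and *atpI*. Neighbouring probe sets can read the same precursor RNA, and this was not separated from mature transcripts by the array.

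**Figure D4:**
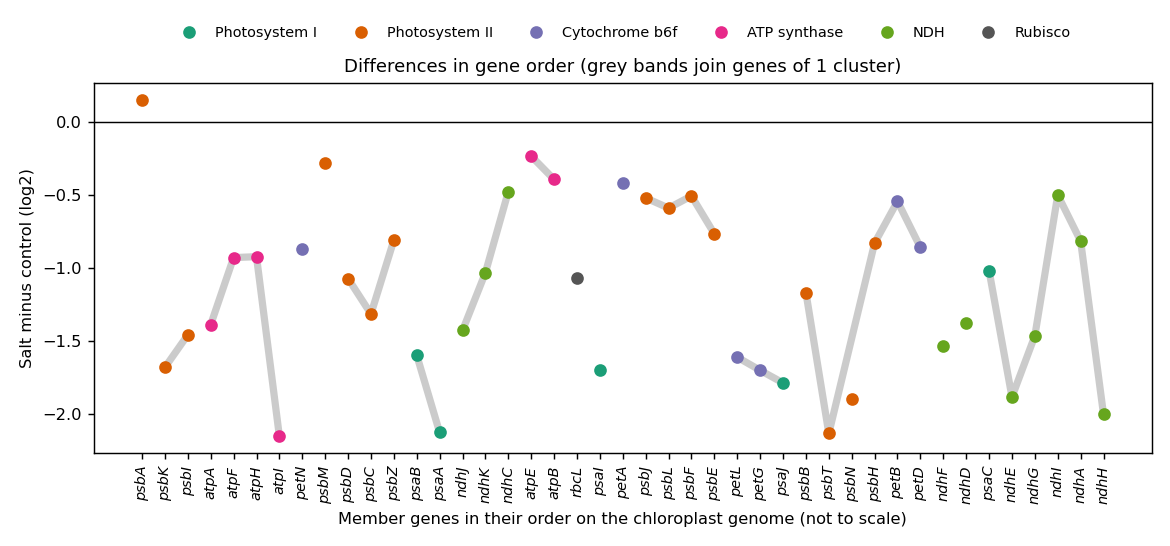
Difference of salt minus control (log2) of the 43 genes in the order of the chloroplast genome, not to scale, with grey bands joining genes of 1 cluster and colours giving the complex. *psbE* to *psbJ* and *petL* to *psaJ* form flat stretches, *atpI* drops away from *atpH*, and *psbT* and *psbN* lie together below *psbB* and *psbH*.

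Other chloroplast genes, for ribosomal proteins, RNA polymerase subunits and further functions, were also lower with salt. Of 26 measured, 16 fell and 0 rose (0 also at an unadjusted p below 0.05), with a median of -1.20, and 16 were at least 2-fold lower. Over all probe sets 13.8% fell, 11.6% rose and 2.74% were at least 2-fold lower. The gene with the largest difference, *ycf3*, for a factor in the assembly of photosystem I, fell by 2.36 ± 0.71 (adjusted p = 0.0499), with salt 3 within the control range. *matK*, for a maturase that acts in intron splicing, fell by 2.31 ± 0.65 (adjusted p = 0.0407), and *rps16*, for a ribosomal protein, fell by 2.31 ± 0.49 (adjusted p = 0.0167). The smallest difference was that of *clpP*, a protease subunit, with -0.11 (adjusted p = 0.776). Over the 69 chloroplast genes together 68 had a difference below 0 and 43 fell.

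Genes of the mitochondrial genome, the other organelle genome of these cells, are a comparison within the same arrays. Of 10 genes of the respiratory chain none fell (0 also at an unadjusted p below 0.05), and the median difference was 0.01. Over all probe sets 13.8% fell and 11.6% rose, and 10 genes are too few to set against these shares. The control mean of 6 of these 10 genes lay under 5.45, the 30th percentile of the mean signal, where a fall would be hard to see. Only *cox2*, a subunit of cytochrome c oxidase, rose, by 1.79 ± 0.39 (adjusted p = 0.0182), and the other 9 did not pass.

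Nuclear genes for subunits of the same complexes were listed, and 9 of 53 had a named probe set. Of these 6 fell and none rose, against 13.8% and 11.6% of all probe sets, and the median was -0.52. In all 9 the salt arrays lay below the control arrays, an arrangement found in 25.4% of all probe sets. The largest changes were in subunits of NDH, where *NDHL* fell by 1.32 ± 0.33 (adjusted p = 0.0272) and *NDHN* fell by 1.21 ± 0.30 (adjusted p = 0.0255). *PSAN*, a subunit of photosystem I on the lumen side, fell by 0.70 ± 0.19 (adjusted p = 0.0385). *PSBY*, *ATPC1* and *ATPC2* also fell, and *PSBW*, *PSB27* and *NDHS* did not pass. None of the 6 genes for sigma factors, which direct the chloroplast polymerase to its promoters, had a named probe set, so they were not analysed here.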

How the data were processed

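RNA of 3 control and 3 salt samples was labelled with an oligo(dT)-primed amplification kit and hybridized to ATH1 arrays. The authors computed log2 expression values by RMA, and the deposited table of 22810 probe sets, 64 of them control probe sets, was used as given. The labels also list GCRMA without saying for what. Versions and probe intensities were not given in the sources used here.

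The platform annotation gave the gene of each probe set. Of 13513 with 1 gene, 13436 were matched to a reference gene table (RefSeq, *Arabidopsis thaliana* Columbia), used for symbols and gene order. Probe sets with several genes (503) were not named. Mitochondrial genes, whose identifiers the gene table lacks, were named by the annotation's symbols. The members and gene lists were chosen with earlier results of these data known.

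Salt was compared with control by limma (lmFit and eBayes, two-sided, unpaired) over 22746 probe sets with Benjamini-Hochberg adjustment, at 0.05. SEs of single genes come from this fit, and those of means over genes from the spread between arrays. An exact permutation test of 3 against 3 arrays could not go below p = 0.1. Of each complex, the 2 genes with the highest and the 2 with the lowest difference, and *rbcL*, are given in full, as are the 3 largest changes that passed in the lists of other chloroplast and nuclear genes. Further genes are named with their difference or to complete a count. Chloroplast clusters were taken from general knowledge.

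The deviations of same-numbered control and salt arrays correlated at -0.12, 0.08 and -0.10 over all probe sets. With so few arrays this cannot show whether the numbers pair the samples. Alternatives comprised quantile normalization, median centring, leaving out each array, blocking on the replicate number, 1 probe set per gene, array weights, trend and robust estimation in eBayes, and a filter at the 30th percentile of mean signal. The limma fit was checked on simulated data. Arrays give no read depth, and their number limits the precision. The fits used limma 3.58.1 and statmod 1.5.0 in R 4.3.3, and the summaries matplotlib 3.10.9, numpy 2.4.6 and pandas 2.3.3 in Python 3.11.15.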

Additional observations from a re-analysis of the deposited data

How the results depend on the processing

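Directions held under every alternative for each gene that it tested, 41 with the filter and all 43 otherwise. The number of members that fell was 27 in the main analysis, where 13.8% of all probe sets fell. It was 24 with quantile normalization (14.9%), 26 with 1 probe set per gene (12.6%) and 26 with trend and robust estimation (13.2%). Median centring gave 27 (16.1%), the filter, which left 41 members, also 27 (19.5%), and array weights 31 (15.3%). The percentages are the shares of all probe sets tested that fell under that setting. Leaving out 1 array gave 6 to 29, with 6 without control 1 or control 2, and the cause was not tested. No member rose under any of them. The median of cytochrome b6f ranged from -1.31 (without salt 3) to -0.63 (without salt 1), and the median of all members from -1.31 to -0.86. The filter removed *atpI* and *petG* and so moved photosystem II against cytochrome b6f to -0.13, photosystem II against ATP synthase to -0.22 and cytochrome b6f against NDH to 0.39.

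With the replicate number as a block (replicate block), 19 members fell, all among the 27, against 10.9% of all probe sets. The deviations of same-numbered arrays correlated at -0.12, 0.08 and -0.10 over all probe sets. Over the members they were -0.35, -0.27 and -0.49, and arrays of different number gave -0.40 to 0.44. With so few arrays these values cannot show whether the numbers pair the samples. A call lost under the block says nothing about the size of an effect. Mean or lowest probe set per gene gave no other value, since each member has 1 probe set.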
